A study of Mus musculus with 18 samples.

Results

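Gata1, Klf1, Tal1, Nfe2, Bcl11a, Epor, Alas2, Tfrc and Slc4a1 are the 9 genes described here, a set of erythroid regulators and red cell genes. They were found by gene symbol in a table of 34245 rows, and all 9 have a row and passed the filter on low values. RNA was measured by RNA-seq in whole FVB mouse embryos at E11.5, with 1 library from each of 9 embryos. There were 3 embryos of each genotype: Dnmt3b+/+, Dnmt3b-/- and Dnmt3bCI/CI. The Dnmt3b-/- embryos carry a germline null allele of the DNA methyltransferase in every cell. The Dnmt3bCI/CI embryos carry a knock-in made with CRISPR/Cas9 that replaces catalytic residues, so that a full-length but catalytically inactive protein can be made. Both kinds of mutant came from crosses of heterozygous parents, and embryos were taken with the heart still beating, so embryos that had died by this stage are not represented. No agent was given to any group. Reduced representation bisulfite data and lymphoma cell lines of the same study were not analysed here.

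Red cells of the midgestation embryo come in overlapping waves. Primitive erythroblasts arise in the yolk sac and circulate while they mature, and definitive erythroblasts are produced in the fetal liver, which is expanding rapidly at this stage. Gata1 is a zinc finger factor that binds GATA motifs and is required for erythroid maturation, Tal1 is a bHLH partner in the same complexes, and Klf1 is a zinc finger factor that binds CACC-type motifs in globin, heme and membrane genes. Nfe2 encodes the large subunit of the NF-E2 factor, which acts in red cell and platelet precursors. Bcl11a represses embryonic and fetal globin genes in definitive erythroid cells and is also made in lymphoid cells and neurons. Epor is the erythropoietin receptor, Alas2 the erythroid enzyme that begins heme synthesis, Tfrc the transferrin receptor through which iron enters, and Slc4a1 the band 3 anion exchanger of the red cell membrane.

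The genes lie on different chromosomes for the most part. In the mm10 build with GENCODE M21, Gata1 spans chrX:7959260-7978071 on the minus strand and Alas2 chrX:150547375-150570638 on the plus strand. Klf1 spans chr8:84901928-84905291, Epor chr9:21958897-21963506 and Tal1 chr4:115056426-115071755. Nfe2 lies at chr15:103248212-103258403, Tfrc at chr16:32608920-32632794, Slc4a1 at chr11:102348824-102366203 and Bcl11a at chr11:24078056-24174123. Exons of Alas2 share 311 bases, 12.9% of its exon length, with Apex2 on the opposite strand. Exons of Bcl11a share 316 bases, 2.4%, with 4930538E20Rik on the opposite strand. Whether reads were assigned by strand is not given in the sources used here, so reads from those stretches cannot be told apart.

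The promoters are shown because Gata1 and Klf1 encode factors with short recognition motifs. RefSeq gave the 250 bases before a start site for 7 of the 9 members on GRCm38.p6, in 9 windows, since Tal1 and Tfrc have 2 start sites each. Nfe2 and Slc4a1 had no entry, and the windows of Tal1 and Tfrc were searched but are not printed. Capitals mark matches, on either strand, to GATAA (the GATA core), CCNCNCCC (the CACC-type motif of the KLF family) or CCAAT, a common promoter box. All sequences run 5′ to 3′ toward the start site.
Gata1 (chrX:7967911-7968160, minus strand): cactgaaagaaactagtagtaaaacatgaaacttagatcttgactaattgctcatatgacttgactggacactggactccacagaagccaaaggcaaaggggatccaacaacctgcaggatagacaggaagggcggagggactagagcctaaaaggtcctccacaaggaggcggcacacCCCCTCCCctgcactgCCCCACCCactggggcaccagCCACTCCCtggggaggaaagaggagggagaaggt
Klf1 (chr8:84901732-84901981, plus strand): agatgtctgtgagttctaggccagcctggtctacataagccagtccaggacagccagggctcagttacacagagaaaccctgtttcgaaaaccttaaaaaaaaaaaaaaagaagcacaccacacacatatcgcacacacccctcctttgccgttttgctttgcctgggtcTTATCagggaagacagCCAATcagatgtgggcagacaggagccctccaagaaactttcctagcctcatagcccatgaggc
Alas2 (chrX:150547167-150547416, plus strand): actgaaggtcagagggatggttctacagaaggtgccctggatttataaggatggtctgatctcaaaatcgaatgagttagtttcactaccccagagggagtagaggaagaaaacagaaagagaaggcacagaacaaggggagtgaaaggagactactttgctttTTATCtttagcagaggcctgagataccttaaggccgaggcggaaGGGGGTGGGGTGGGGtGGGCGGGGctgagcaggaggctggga
Epor (chr9:21963577-21963826, minus strand): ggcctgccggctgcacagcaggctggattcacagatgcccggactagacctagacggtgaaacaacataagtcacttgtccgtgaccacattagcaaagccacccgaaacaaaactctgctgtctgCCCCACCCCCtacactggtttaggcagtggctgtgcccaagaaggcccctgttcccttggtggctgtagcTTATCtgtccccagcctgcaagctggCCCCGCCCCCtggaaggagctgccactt
Bcl11a (chr11:24080445-24080694, plus strand): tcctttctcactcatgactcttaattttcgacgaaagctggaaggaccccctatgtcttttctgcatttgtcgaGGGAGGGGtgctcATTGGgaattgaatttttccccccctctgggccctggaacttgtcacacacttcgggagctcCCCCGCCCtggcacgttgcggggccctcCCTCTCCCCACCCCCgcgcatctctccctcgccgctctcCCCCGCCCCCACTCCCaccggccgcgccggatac

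GATAA was found in 4 of the 9 windows (Klf1, Tal1, Epor and Alas2) and in 22.6% of 32851 RefSeq mouse promoters of the same length. In Klf1 it begins 80 bases before the start site, in Epor 54 bases and in Alas2 86 bases, each time on the opposite strand. CCNCNCCC was found in 7 of the 9 windows, all but Klf1 and a Tal1 window, and in 45.9% of all promoters. Epor holds it 4 times, as overlapping pairs that begin 124 and 122, and 28 and 26, bases before the start. Alas2 also holds 4 matches, of which those at 42, 40 and 35 bases overlap. Bcl11a holds 8 matches, some overlapping, and Gata1 holds 3 separate ones at 71, 55 and 34 bases. CCAAT was found in 3 windows (Klf1, Bcl11a and Tfrc), against 33.8% of all promoters. Such matches are letters in a window and were not tied to binding here.

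Before the genes themselves, the libraries. They hold between 38451733 and 49808782 reads each. Dnmt3b itself was not lower in the embryos labelled Dnmt3b-/-: it stood at 2.25, 1.62 and 2.04 FPKM (fragments per unit of transcript length and of library size) in Dnmt3b+/+ embryos 1 to 3, at 2.45, 3.12 and 3.33 in those labelled Dnmt3b-/-, and at 2.06, 1.98 and 2.32 in Dnmt3bCI/CI. The difference of the labelled Dnmt3b-/- from Dnmt3b+/+ embryos was 0.57 on the log2 scale (SE 0.15, adjusted p = 0.0248, limma), and a value for the whole gene cannot show the loss of some exons. Red cell transcripts were present in all 9 libraries, in which the embryonic beta globin Hbb-y ranged from 944 to 3825 FPKM. Dnmt3b+/+ embryo 2 stands apart in the members and in liver genes. Every comparison is therefore given with and without that embryo.

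The 5 transcription factors were measured between 1.22 and 15.7 FPKM in 8 of the embryos, and 3 of them were far lower in Dnmt3b+/+ embryo 2. Gata1 was at 3.43, 0.115 and 1.81 FPKM in Dnmt3b+/+ embryos 1, 2 and 3, at 1.36, 2.35 and 1.22 in the embryos labelled Dnmt3b-/-, and at 2.12, 2.34 and 3.20 in Dnmt3bCI/CI. The value of embryo 2 rests on 14 reads, with a 95% exact Poisson interval of 0.0630 to 0.193 FPKM that covers counting error only, and so lies below the other 8 embryos. Klf1 was at 15.7, 0.446 and 7.62 FPKM in Dnmt3b+/+, at 4.36, 10.02 and 4.66 in the labelled Dnmt3b-/-, and at 9.39, 10.9 and 13.3 in Dnmt3bCI/CI. It was again lowest in Dnmt3b+/+ embryo 2, on 34 reads with an interval of 0.309 to 0.624 FPKM, and highest in embryo 1 of the same genotype. Thus the lowest and the highest Klf1 of the 9 embryos came from the same genotype. Nfe2 was at 3.36, 0.228 and 2.00 FPKM in Dnmt3b+/+, at 1.39, 2.41 and 1.55 in the labelled Dnmt3b-/-, and at 2.12, 2.66 and 2.79 in Dnmt3bCI/CI. It followed the same order among the Dnmt3b+/+ embryos, and the value of embryo 2 rests on 34 reads (interval 0.158 to 0.319 FPKM).

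The other 2 factors were not far lower in that embryo. Tal1 was at 6.88, 3.83 and 4.76 FPKM in Dnmt3b+/+, at 3.94, 5.29 and 3.36 in the labelled Dnmt3b-/-, and at 4.70, 5.53 and 5.64 in Dnmt3bCI/CI. Embryo 2 of Dnmt3b+/+ lay within the range of the other 8, above embryo 3 of the labelled Dnmt3b-/-. Tal1 is also made in endothelial cells and in parts of the nervous system, and the summed endothelial markers in Dnmt3b+/+ embryo 2 (62.9 FPKM) lay within the range of the others (45.3 to 66.7 FPKM). Their part in the Tal1 level was not tested. Bcl11a was at 5.52, 5.79 and 4.99 FPKM in Dnmt3b+/+, at 5.07, 4.77 and 5.07 in the labelled Dnmt3b-/-, and at 4.99, 4.68 and 5.30 in Dnmt3bCI/CI. It was the steadiest member, with the highest value in the very embryo in which Gata1 was lowest. In the embryo as a whole Bcl11a can come from neurons, whose 10 summed markers were highest in Dnmt3b+/+ embryo 2 (556.8 FPKM against 216.7 to 460.3 in the others). Their part in the Bcl11a level was not tested.

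Epor, the receptor, was at 5.64, 1.03 and 3.52 FPKM in Dnmt3b+/+, at 2.27, 5.32 and 2.88 in the labelled Dnmt3b-/-, and at 3.55, 3.54 and 4.24 in Dnmt3bCI/CI. The groups overlapped throughout, and the Dnmt3bCI/CI embryos were the closest to each other. Alas2, the heme enzyme, was at 18.7, 6.17 and 11.9 FPKM in Dnmt3b+/+, at 8.89, 19.1 and 11.3 in the labelled Dnmt3b-/-, and at 12.4, 13.3 and 14.0 in Dnmt3bCI/CI. It is the member whose highest value came from embryo 2 of the labelled Dnmt3b-/-. Tfrc, which brings in iron, was at 12.4, 4.12 and 7.38 FPKM in Dnmt3b+/+, at 8.03, 10.2 and 9.70 in the labelled Dnmt3b-/-, and at 8.09, 7.97 and 8.67 in Dnmt3bCI/CI. All dividing cells use it, and its lowest value was still 1268 reads. Slc4a1, the membrane exchanger, was at 43.6, 5.21 and 26.2 FPKM in Dnmt3b+/+, at 18.7, 36.9 and 22.4 in the labelled Dnmt3b-/-, and at 26.3, 28.1 and 30.5 in Dnmt3bCI/CI. It was the most abundant member per length in 8 of 9 embryos, all but Dnmt3b+/+ embryo 2. In whole embryos fewer red cells and less RNA per red cell cannot be told apart.

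**Figure D1:**
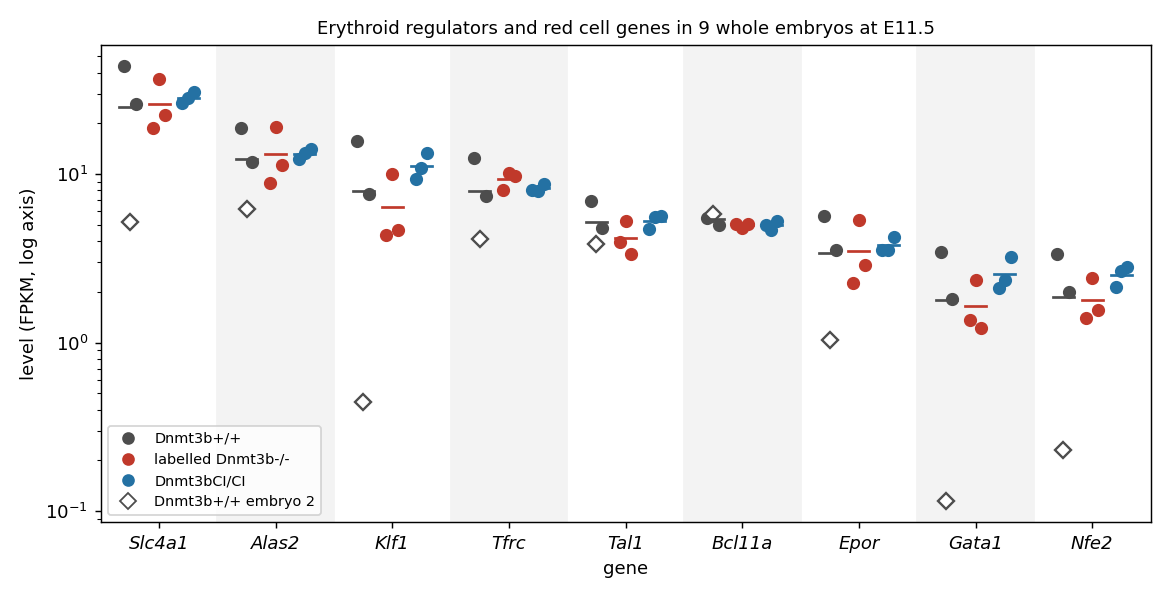
FPKM (log axis) of the 9 genes in each of the 9 embryos, coloured by genotype, with 1 point for each library and a line at each genotype's mean. Dnmt3b+/+ embryo 2 (open diamond) lies below the other 8 embryos for 7 genes, within them for Tal1 and above them for Bcl11a.

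Per length, Slc4a1 and then Alas2 were the highest members in 8 of the 9 embryos. In Dnmt3bCI/CI embryos the mean was 28.3 ± 2.13 FPKM for Slc4a1, 13.2 ± 0.837 for Alas2, 11.2 ± 1.97 for Klf1 and 8.25 ± 0.376 for Tfrc (SD, n = 3). Below these came Tal1 at 5.29 ± 0.512 and Bcl11a at 4.99 ± 0.313, then Epor at 3.78 ± 0.399, Gata1 at 2.55 ± 0.571 and Nfe2 at 2.53 ± 0.354. Alas2 and Klf1, Tal1 and Bcl11a, and Gata1 and Nfe2 were neighbours whose embryos overlapped in FPKM. The order below Alas2 varied. In all 3 labelled Dnmt3b-/- embryos Tfrc ranked above Klf1, and in embryos 1 and 3 of them Bcl11a did too. Epor ranked above Bcl11a in Dnmt3b+/+ embryo 1, and above both Tal1 and Bcl11a in labelled Dnmt3b-/- embryo 2. The order was most unlike this in Dnmt3b+/+ embryo 2, where Alas2 and Bcl11a led and Klf1, Nfe2 and Gata1 came last.

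The spread among the Dnmt3b+/+ embryos set the scale for every comparison. The highest Dnmt3b+/+ embryo exceeded the lowest 35.2-fold for Klf1, 29.7-fold for Gata1, 14.7-fold for Nfe2 and 8.37-fold for Slc4a1. The ratio was 5.48 for Epor, 3.03 for Alas2, 3.01 for Tfrc, 1.80 for Tal1 and 1.16 for Bcl11a. Between embryos 1 and 3 alone it was 2.06 for Klf1, 1.89 for Gata1 and at most 1.68 for the other 7. Embryo 1 was the higher of that pair for all 9 members, and the highest of all 9 embryos for Gata1, Klf1, Tal1, Nfe2, Epor, Tfrc and Slc4a1.

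Set beside all 19397 genes tested, the standard deviation of log2(FPKM + 0.1) within Dnmt3b+/+ was 2.56 for Klf1, 2.12 for Gata1, 1.79 for Nfe2, 1.59 for Slc4a1 and 1.21 for Epor, against a median of 0.135. These lay at percentiles 99.8, 99.7, 99.6, 99.4 and 99.0. Alas2 and Tfrc lay at percentiles 97.6 and 97.5, Tal1 at 89.3 and Bcl11a at 39.1. The Dnmt3bCI/CI embryos were far more alike: the members' standard deviations there were between 0.06 (Tfrc) and 0.30 (Gata1) on the same log2 scale, at percentiles 28.9 to 90.7. Among the labelled Dnmt3b-/- embryos they were between 0.05 (Bcl11a) and 0.66 (Klf1). Embryo 2 of that genotype was the highest of its group for the 8 members other than Bcl11a, and the lowest for Bcl11a.

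Dnmt3b+/+ embryo 2 lay below all other 8 embryos for 7 of the 9 members, a place it held for 3850 of 19397 genes (19.8%). The median of the other 8 exceeded it 21.8-fold for Klf1, 19.3-fold for Gata1, 9.92-fold for Nfe2, 5.22-fold for Slc4a1 and 3.44-fold for Epor. For Alas2 and Tfrc the ratio was smaller, at 2.08 and 2.04. Among the other 8 embryos the highest exceeded the lowest by 3.61-fold for Klf1 and by less for every other member. The members were thus not scaled down by a common factor in this embryo, and the regulators Klf1, Gata1 and Nfe2 were further below the other embryos than the heme enzyme and the iron receptor.

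**Figure D2:**
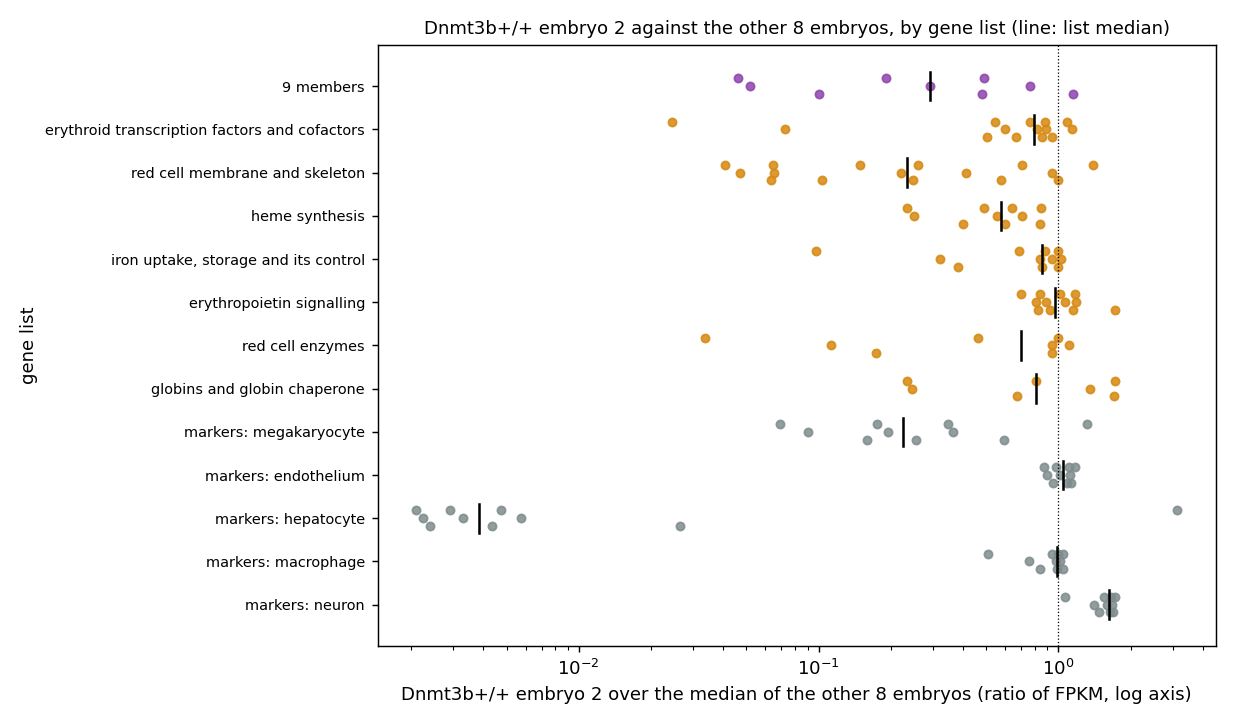
FPKM in Dnmt3b+/+ embryo 2 divided by the median of the other 8 embryos (log axis), with 1 point for each member and each gene of the pathway and marker lists and a line at each list's median. Points left of 1 are lower in that embryo, as Klf1 (21.8-fold below the median of the others) and Gata1 (19.3-fold below) are, while Bcl11a is the member right of 1.

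Other red cell genes showed the same embryo to be unlike the rest. All 10 genes of heme synthesis lay below the other 8 embryos, as did 12 of 16 membrane and skeleton genes and 5 of 8 red cell enzymes. Of 14 further transcription factors and cofactors 5 did so, of 11 genes of iron handling 3, of 12 genes of erythropoietin signalling 2 and of 7 globin genes 2, which makes 39 of 78 in all. Over all genes the share was 19.8%, so iron handling, erythropoietin signalling and globins lay near it. Among the deepest were Hemgn (0.112 FPKM), a chromatin factor of blood cells, with a median of the others 40.7 times as high, and Pklr (0.180 FPKM), the red cell pyruvate kinase, at 29.7 times. The rhesus antigen Rhd (0.365 FPKM) stood at 15.4 times and the repressor Gfi1b (0.0987 FPKM) at 13.9 times.

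Among the globins, 2 of 7 lay below the other 8 embryos. The embryonic Hbb-y was at 1701 FPKM in Dnmt3b+/+ embryo 2 and the embryonic Hba-x at 310 FPKM, neither below the others, and the adult alpha globins Hba-a1 (724 FPKM, others 432 to 1525) and Hba-a2 (10.96 FPKM, others 6.13 to 20.9) lay within them too. The adult beta globins Hbb-bs (100.4 FPKM, others 104 to 711) and Hbb-bt (22.4 FPKM, others 27.9 to 144) were below them, Hbb-bs by little. Both the beta and the alpha pair are near-identical copies, between which reads may be split. Markers of other cells moved in this embryo too. Of 10 hepatocyte markers 9 lay below the other 8 embryos, with Alb at 0.103 FPKM against 9.67 to 85.7 and Afp at 0.119 against 23.8 to 93.3. Their sum was 277.5, 35.9 and 154.2 FPKM in the Dnmt3b+/+ embryos, 56.3 to 115 in the labelled Dnmt3b-/- and 174 to 203.7 in Dnmt3bCI/CI; in embryo 2 Ttr, which other tissues also make, gave 35.5 FPKM of it. Of 10 megakaryocyte markers 9 lay below the others, summing to 34.7, 15.1 and 21.5 FPKM in Dnmt3b+/+, 15.7 to 26.5 in the labelled Dnmt3b-/- and 24.6 to 35.6 in Dnmt3bCI/CI. No endothelial marker and 1 of 10 macrophage markers did so. The part of fetal liver content in the members' values was not tested.

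The ratio of 2 members in the same embryo does not depend on library size. These 8 ratios were chosen after values had been seen. Klf1 over Gata1 was 3.87 in Dnmt3b+/+ embryo 2 and 3.21 to 4.66 in the other 8, so both factors were lower by a like factor. Tal1 over Gata1 was 33.2 there against 1.76 to 2.90, Epor over Gata1 8.93 against 1.32 to 2.35, and Nfe2 over Gata1 1.98 against 0.873 to 1.27. Alas2 over Klf1 was 13.8 against 1.06 to 2.42, Slc4a1 over Klf1 11.7 against 2.30 to 4.81, and Tfrc over Klf1 9.23 against 0.653 to 2.08. Klf1 over Gata1 was hence the ratio of these 8 that stayed inside the range of the other embryos.

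Ratios to Klf1 did not overlap between the labelled Dnmt3b-/- and the Dnmt3bCI/CI embryos, a comparison that leaves Dnmt3b+/+ embryo 2 out. Of all single genes tested, 46.2% showed no overlap between these mutants, so such a gap is common. Alas2 over Klf1 was 2.04, 1.91 and 2.42 in the former and 1.32, 1.21 and 1.06 in the latter. Slc4a1 over Klf1 was 4.29, 3.68 and 4.81 against 2.80, 2.58 and 2.30. Tfrc over Klf1 was 1.84, 1.02 and 2.08 against 0.861, 0.731 and 0.653. All 3 labelled Dnmt3b-/- embryos thus held more Alas2, Slc4a1 and Tfrc for each unit of Klf1 than any Dnmt3bCI/CI embryo. These 3 ratios share Klf1 as divisor, so they are not separate results. Alas2 over Slc4a1 did not overlap either, with means of 0.499 and 0.467. An exact two-sided permutation test gave p = 0.1 for each of these 4 ratios, the smallest that 3 against 3 embryos allow, and 0.4 after adjustment over 16 relations. Groups without overlap always give that smallest value, and the ratios were chosen after values had been seen. The test therefore adds nothing to the lack of overlap. Against Dnmt3b+/+ all 8 ratios overlapped. In Dnmt3b+/+ embryos 1 and 3 Alas2 over Klf1 was 1.19 and 1.56, Slc4a1 over Klf1 2.77 and 3.43, and Tfrc over Klf1 0.789 and 0.969, below the 3 labelled Dnmt3b-/- embryos in each case, so this overlap came from embryo 2.

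**Figure D3:**
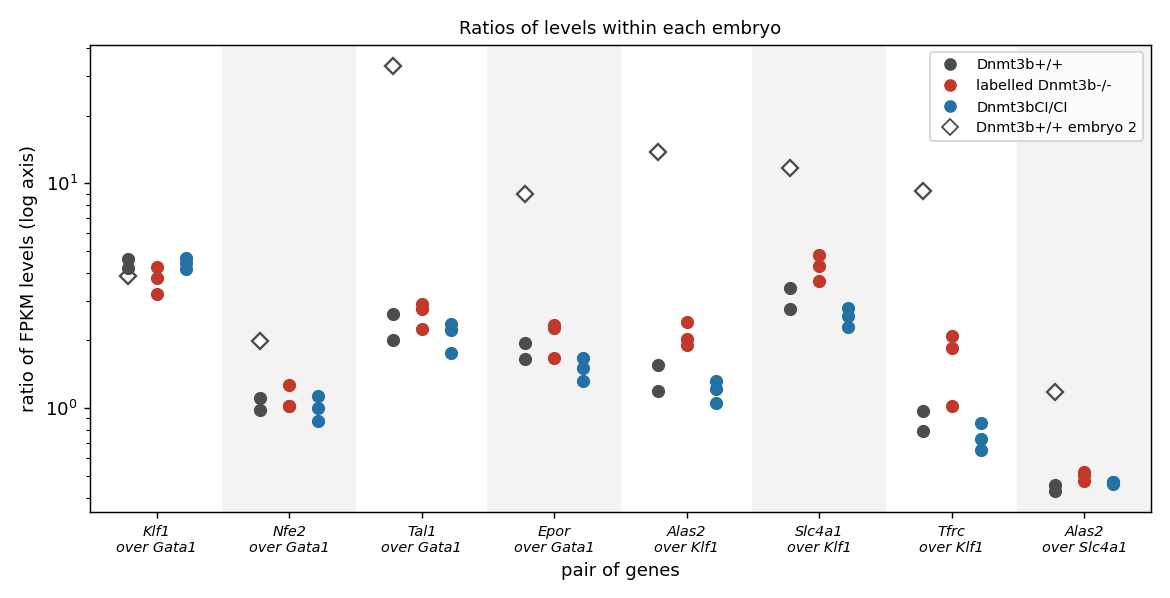
Ratios of FPKM between members (log axis), with 1 point for each of the 9 embryos, by genotype. Alas2, Slc4a1 and Tfrc over Klf1 are higher in the 3 labelled Dnmt3b-/- embryos than in the 3 Dnmt3bCI/CI embryos, and Dnmt3b+/+ embryo 2 lies far above both at 13.8, 11.7 and 9.23.

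The first comparison asks whether loss of Dnmt3b changed the members. None of the 9 was called between the labelled Dnmt3b-/- and Dnmt3b+/+ embryos at an adjusted p under 0.05 (limma on log2(FPKM + 0.1), Benjamini-Hochberg over all genes tested), and none had an unadjusted p under 0.05. Over all genes 25.8% were called, 9.41% higher and 16.4% lower. The difference was 0.57 for Gata1 (SE 0.87, adjusted p = 0.659), 0.56 for Klf1 (SE 1.05, adjusted p = 0.720), 0.46 for Nfe2 (SE 0.73, adjusted p = 0.675) and 0.45 for Slc4a1 (SE 0.66, adjusted p = 0.643), all log2. The intervals are wide: that of Klf1 ran from -1.82 to 2.95. The difference was 0.35 for Tfrc, 0.23 for Epor, 0.16 for Alas2, -0.12 for Bcl11a and -0.28 for Tal1. The median of the members was 0.35 against -0.07 over all genes tested.

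Leaving out Dnmt3b+/+ embryo 2 turned the sign of 7 members. All 9 then lay below 0, with a median of -0.44 against -0.08 over all genes tested, and again none was called or had an unadjusted p under 0.05. In the same fit all 10 hepatocyte markers lay below 0 (median -1.24, 6 called) and 8 of 9 megakaryocyte markers did (median -0.50, none called), and their part in the members' values was not tested. Klf1 stood at -0.88 (SE 0.41, 95% interval -1.83 to 0.06, adjusted p = 0.167), Gata1 at -0.63 (SE 0.34, adjusted p = 0.230), Nfe2 at -0.56 (SE 0.27, adjusted p = 0.192) and Tal1 at -0.46 (SE 0.21, adjusted p = 0.161). Epor and Slc4a1 stood at -0.44, Alas2 at -0.26, Bcl11a at -0.08 and Tfrc at -0.05. In that fit 18.1% of all genes were called, 6.04% higher and 12.0% lower. A single Dnmt3b+/+ embryo therefore turned the direction of Gata1, Klf1, Nfe2, Epor, Alas2, Tfrc and Slc4a1, and leaving out labelled Dnmt3b-/- embryo 2 instead also turned Epor (-0.11) and Alas2 (-0.15). Leaving out Dnmt3b+/+ embryo 1 instead gave the sole call among the members, Tfrc at 0.74 (SE 0.22, adjusted p = 0.0468).

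The second comparison asks whether removing catalytic activity alone changed them. Between Dnmt3bCI/CI and Dnmt3b+/+ embryos the members stood at 1.46 for Klf1, 1.21 for Gata1, 0.96 for Nfe2, 0.64 for Slc4a1, 0.43 for Epor, 0.25 for Alas2, 0.19 for Tfrc, 0.07 for Tal1 and -0.12 for Bcl11a (log2, limma, each adjusted p at least 0.949). None was called and none had an unadjusted p under 0.05, where 0.144% of all genes were called. Without Dnmt3b+/+ embryo 2, Klf1 was at 0.02 (SE 0.41), Gata1 at 0.01 (SE 0.34) and the others between -0.26 and -0.05, with 0.130% of all genes called. The interval of Klf1 then ran from -0.93 to 0.97, so differences up to about that size in either direction were not detectable with these embryos.

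The third comparison sets the 2 mutants against each other. Between the labelled Dnmt3b-/- and Dnmt3bCI/CI embryos none of the 9 was called, against 27.9% of all genes (9.70% higher, 18.2% lower), and none had an unadjusted p under 0.05. The difference was -0.90 for Klf1 (SE 1.05, adjusted p = 0.547, limma), -0.64 for Gata1, -0.51 for Nfe2, -0.35 for Tal1, -0.20 for Epor, -0.18 for Slc4a1, -0.09 for Alas2, -0.0040 for Bcl11a and 0.17 for Tfrc, all log2. Dnmt3b+/+ embryo 2 enters this fit through the shared estimate of the spread. Without it 32.0% of all genes were called (10.8% higher, 21.2% lower), and for Klf1 the standard error fell to 0.37, with an interval from -1.75 to -0.05 and an adjusted p of 0.0953 (limma). Klf1 was then the 1 member with an unadjusted p under 0.05. Between the mutants all 10 hepatocyte markers lay below 0 (median -1.29), with 1 called from all embryos and 8 without Dnmt3b+/+ embryo 2. All 9 megakaryocyte markers tested did too (median -0.60, none called). Their part in the members' values was not tested. In none of the 3 comparisons were the groups of any member without overlap, whereas this held for 38.9% of all genes between the labelled Dnmt3b-/- and Dnmt3b+/+, 13.2% between Dnmt3bCI/CI and Dnmt3b+/+ and 46.2% between the mutants. The comparisons share embryos and are not independent.

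**Figure D4:**
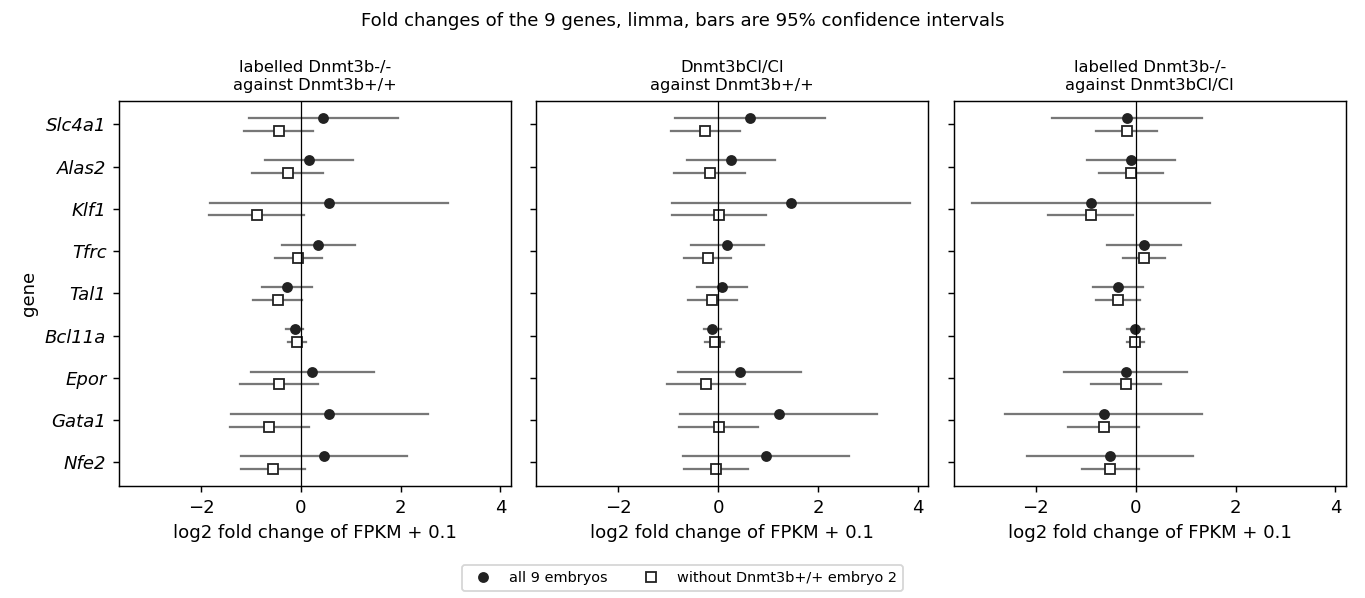
Log2 difference of log2(FPKM + 0.1) for the 9 genes in the 3 comparisons, with 95% intervals, from all 9 embryos and without Dnmt3b+/+ embryo 2. Klf1 moves from 0.56 to -0.88 between labelled Dnmt3b-/- and Dnmt3b+/+ and from 1.46 to 0.02 between Dnmt3bCI/CI and Dnmt3b+/+, while Bcl11a stays near 0.

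The members varied together. After the mean of each genotype had been taken away, Pearson's r over the 9 embryos was between 0.788 and 0.998 for the 28 pairs of the 8 members other than Bcl11a, with a median of 0.942. Without Dnmt3b+/+ embryo 2 it was between 0.667 and 0.993, with a median of 0.929, over 8 embryos. The 8 pairs with Bcl11a had r between -0.484 and -0.249, and between 0.0046 and 0.499 without that embryo. These are descriptions over few libraries, and all points of a pair share the embryo and its library.

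Among 12800 genes with a mean of at least 1 FPKM, those nearest to the members were mostly red cell genes. Klf1 was nearest to Gata1 (r = 0.997, and 0.973 without Dnmt3b+/+ embryo 2), followed by 6030468B19Rik and Gcat, a mitochondrial enzyme. Pklr was nearest to Klf1 (0.999, then 0.989), ahead of 6030468B19Rik and Nfe2. Nfe2 had 6030468B19Rik (1.000, then 0.998), Pklr and Klf1. Slc4a1 had Rhd (1.000, then 0.998) and Trim10. Epor had the biliverdin reductase Blvrb (0.996, then 0.989) and the ferrireductase Steap3. Tal1 had its partner Lmo2 (0.984, then 0.975), Imp4 and 6030458C11Rik. Alas2 had Rcc1 (0.996), Ctse and Gpx1, and Tfrc had Ankle2 (0.984, then 0.975), Stom and Tnfaip2. Bcl11a stood by itself, with Med31 (0.987, then 0.990), Rbm18 and Nol4.

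Around the members, 77 other genes of red cell pathways were tested, and 13 of them were called between the labelled Dnmt3b-/- and Dnmt3b+/+ embryos, 4 higher and 9 lower. That is fewer of the list than the 25.8% of all genes. Of 14 transcription factors and cofactors 4 fell and none rose. Runx1, required for definitive blood cells to form, was at 1.02, 0.655 and 0.895 FPKM in Dnmt3b+/+ against 0.439, 0.481 and 0.438 in the labelled Dnmt3b-/- (log2 difference -0.77, adjusted p = 0.00890, limma). Sox6, which acts with Bcl11a on embryonic globin genes but is also made in cartilage and neural cells, was at 2.91, 2.16 and 2.37 against 1.57, 1.20 and 1.60 FPKM (-0.73, adjusted p = 0.00953). Neither gene's groups overlapped, which held for 38.9% of all genes. Zbtb7a, another globin repressor, fell by 0.52 and Foxo3 by 0.31 on the log2 scale. Both calls were lost without Dnmt3b+/+ embryo 1 or 3 or labelled Dnmt3b-/- embryo 2 or 3, each left out alone (limma, adjusted p from 0.0552 to 0.0722 for Zbtb7a and from 0.0560 to 0.0738 for Foxo3). Runx1 and Kit are also made in other blood cells and Gata2 in endothelium, and markers of such cells moved as well: 3 of 10 macrophage markers were called lower and 1 higher, and 1 of 10 endothelial markers lower, where 16.4% of all genes were lower. The summed macrophage markers were 28.1 to 31.9 FPKM in Dnmt3b+/+, 22.2 to 29.7 in the labelled Dnmt3b-/- and 32.1 to 36.6 in Dnmt3bCI/CI, and the endothelial ones 52.3 to 62.9, 45.3 to 57.4 and 65.7 to 66.7. Sox6 and Gata2 are made in neural cells as well, and all 10 neuron markers had a log2 difference below 0 (median -0.57, 1 of 10 called). Their part in these calls was not tested.

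Of 12 genes of erythropoietin signalling 4 fell and 1 rose, where 16.4% of all genes fell and 9.41% rose. Jak2, the kinase bound to Epor, was at 5.53, 4.94 and 5.07 FPKM in Dnmt3b+/+ against 4.02, 3.96 and 4.27 in the labelled Dnmt3b-/- (-0.34, adjusted p = 0.00974). The STAT5 target Socs2 was at 1.36, 1.64 and 1.60 against 1.06, 1.02 and 1.03 FPKM (-0.51, adjusted p = 0.00986). Cish (-0.53, adjusted p = 0.0237) and the stem cell factor receptor Kit (-0.32, adjusted p = 0.0198) also fell, and Socs3 rose by 0.30 (adjusted p = 0.0340). Cish was no longer called without Dnmt3b+/+ embryo 1 or 2 or labelled Dnmt3b-/- embryo 3 (adjusted p up to 0.0796), nor Kit without Dnmt3b+/+ embryo 2 or 3 or labelled Dnmt3b-/- embryo 3 (up to 0.0640). These genes serve many cytokine receptors and cell types of the embryo, and Epor itself was not called.

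The genes closest in function to Alas2, Tfrc and Slc4a1 gave few calls. None of 10 heme synthesis genes was called (smallest p, Alad at 0.27, adjusted p = 0.470), none of 11 genes of iron handling (Slc40a1, the iron exporter, at -0.26, adjusted p = 0.319) and none of 7 red cell enzymes (Prdx2 at 0.16, adjusted p = 0.191). None of the heme, iron and enzyme genes had an unadjusted p under 0.05. Of 16 membrane and skeleton genes Epb41 rose by 0.23 (adjusted p = 0.0285) and Add2 fell by 0.50 (adjusted p = 0.0379). The call of Add2 held only without Dnmt3b+/+ embryo 3 or labelled Dnmt3b-/- embryo 1 when single embryos were left out, and that of Epb41 was lost without Dnmt3b+/+ embryo 2 or 3 or labelled Dnmt3b-/- embryo 2 (adjusted p up to 0.0934). Of 7 globin genes the embryonic Hbb-bh1 rose, from 26.9, 46.1 and 23.2 FPKM in Dnmt3b+/+ to 113, 501 and 265 in the labelled Dnmt3b-/- (3.01, adjusted p = 0.00418), and Hba-x rose by 1.79 (adjusted p = 0.0180). The call of Hba-x was lost without Dnmt3b+/+ embryo 3 (adjusted p = 0.0598) and without labelled Dnmt3b-/- embryo 3 (adjusted p = 0.0540).

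Without Dnmt3b+/+ embryo 2 the pathway genes called were 15, of which 2 rose and 13 fell, or 15 of 77 where 18.1% of all genes were called, so the share is near the background. The count of 13 called with all embryos fell to 6 without labelled Dnmt3b-/- embryo 3, 7 without Dnmt3b+/+ embryo 3 and 8 without labelled Dnmt3b-/- embryo 2. Without Dnmt3b+/+ embryo 2, Add2, Epb41, Cish, Kit and Socs3 were no longer called. Ank1 (-0.77), Gypc (-0.54), Dmtn (-0.69), Kitl, Trf (-1.20), Hbb-bs (-1.81) and Hbb-bt (-1.89) were called lower instead; they fall outside the rule for naming genes and are given because they changed. Hepatocyte markers moved with them. In the labelled Dnmt3b-/- against Dnmt3b+/+ embryos 1 of 10 was called lower with all embryos and 6 of 10 without Dnmt3b+/+ embryo 2, and against Dnmt3bCI/CI 1 and 8 of 10. Their part in the red cell values was not tested.

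Between the mutants 13 pathway genes were called, 5 higher and 8 lower in the labelled Dnmt3b-/-, and 24 (6 higher, 18 lower) without Dnmt3b+/+ embryo 2. Read against all genes, of which 27.9% and 32.0% were called, 13 of 77 is below the background and 24 of 77 near it. The count was 8 without labelled Dnmt3b-/- embryo 2 or 3, or without Dnmt3bCI/CI embryo 1 or 3. Gata2, the GATA factor of progenitors that Gata1 replaces during maturation, was at 3.63, 3.61 and 3.47 FPKM in the labelled Dnmt3b-/- against 2.50, 2.03 and 2.97 in Dnmt3bCI/CI (0.51, adjusted p = 0.0156). Gata2 rose here without a call for Gata1, and it is also made in endothelial and neural cells. Runx1 (-0.84, adjusted p = 0.00553), Zbtb7a (-0.52, adjusted p = 0.0223), Sox6 (-0.50, adjusted p = 0.0329), Socs2 (-0.54, adjusted p = 0.00724), Cish (-0.45, adjusted p = 0.0416), Kit (-0.39, adjusted p = 0.00838) and Jak2 (-0.28, adjusted p = 0.0163) were lower, as was Foxo3 (-0.33). The calls of Sox6 and Cish held under 9 and 8 of the 19 alternative settings, and those of Zbtb7a and Jak2 under 14. Leaving out single embryos ended the call of Sox6 for Dnmt3b+/+ embryo 3, labelled Dnmt3b-/- embryos 2 and 3 and all Dnmt3bCI/CI embryos (adjusted p up to 0.109), and that of Cish for labelled Dnmt3b-/- embryos 1 and 3 and all Dnmt3bCI/CI embryos (up to 0.134). It ended that of Zbtb7a for labelled Dnmt3b-/- embryo 3 and Dnmt3bCI/CI embryos 2 and 3, that of Jak2 for labelled Dnmt3b-/- embryo 2 and Dnmt3bCI/CI embryos 1 and 3, and that of Gata2 for labelled Dnmt3b-/- embryo 2 (adjusted p = 0.0517). Of the markers, 5 of 10 of macrophages and 4 of 10 of endothelium were also lower, where 18.2% of all genes were. All 10 neuron markers had a difference below 0 (median -0.67), with 1 called lower, and 4 without Dnmt3b+/+ embryo 2. The part of these cells in the calls was not tested. Socs3 rose by 0.27, Epb41 by 0.28 (adjusted p = 0.0118), Hbb-bh1 by 3.37 (adjusted p = 0.00231) and Hba-x by 2.07 (adjusted p = 0.00934). With all 9 embryos no heme, iron or enzyme gene was called, with the smallest p for Slc25a38 (-0.17, adjusted p = 0.272), Slc40a1 (-0.56, adjusted p = 0.0513) and Bpgm (0.22, adjusted p = 0.125). Without Dnmt3b+/+ embryo 2, 3 of 11 iron genes (Trf at -0.92, Tfr2 at -0.64 and Slc40a1 at -0.56) and 1 of 7 enzymes (Blvrb at -0.70) were called lower, and again no heme synthesis gene. Trf, Tfr2 and Blvrb are named because they make up these counts.

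**Figure D5:**
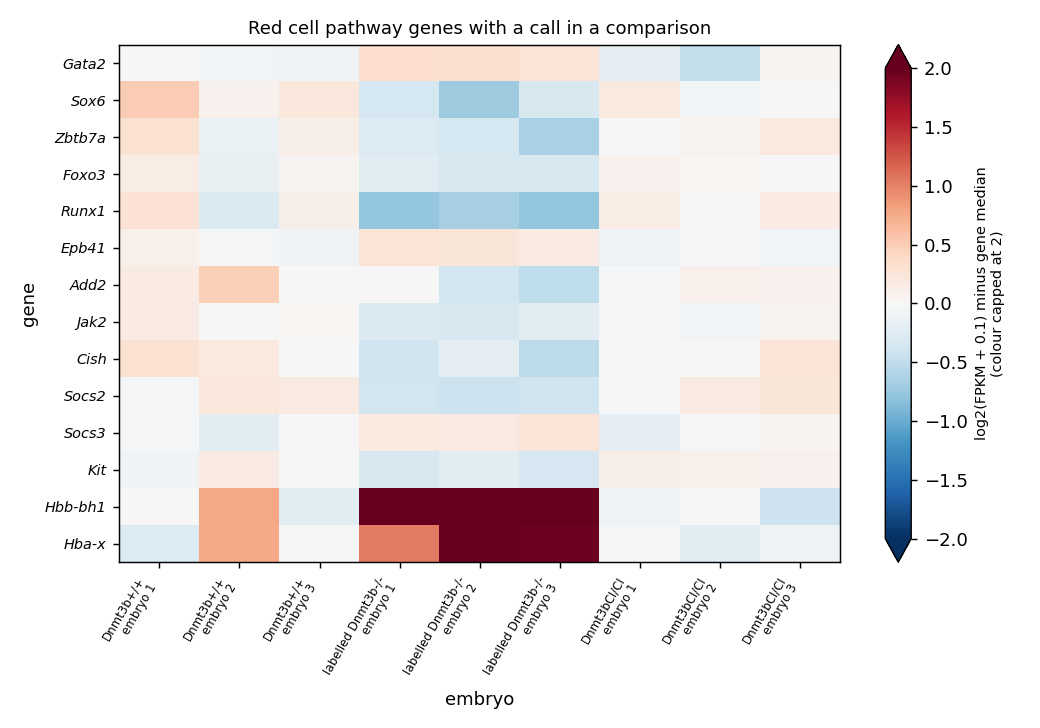
Log2(FPKM + 0.1) minus the gene's median over the 9 embryos for 14 pathway genes called in a comparison, in each of the 9 embryos, with colour capped at 2. Hbb-bh1 and Hba-x are higher and Runx1 and Sox6 lower in the 3 labelled Dnmt3b-/- embryos than in the other 6.

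Between Dnmt3bCI/CI and Dnmt3b+/+ none of the 77 pathway genes was called by limma. Hmox1, which breaks down heme, was the 1 gene with an unadjusted p under 0.05 (0.22, adjusted p = 0.930). The smallest p of the other lists belonged to Sox6 (-0.22), Rhd (1.197), Slc25a38 (0.23), Lyn (0.24), Pklr (1.46) and Hbb-bs (0.72), each with an adjusted p of 0.949. Rhd, Pklr and Hbb-bs are low in Dnmt3b+/+ embryo 2, and without it they stood at -0.05, -0.01 and -0.05. No gene of the lists then had an unadjusted p under 0.05.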

How the data were processed

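Whole-embryo RNA was extracted with trizol, per the labels, and sequenced in paired ends, per the paper's methods, and the authors aligned reads to mm10 with STAR and quantified genes in SeqMonk. The submitters' processing notes also name Trimmomatic, FastQC, DESeq2, BSMAP and MethylDackel, with no order. The FPKM values deposited by the authors are relative to library size and gene length, and fold changes are on the log2(FPKM + 0.1) scale, which understates the change of low genes. Whole reads were read back from the lowest steps of each column, and the implied lengths matched the annotation for 94.2% of 2989 genes checked. A gene without reads is listed at the worth of 0.9 reads, and 1 row without a gene name was dropped.

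Genes with at least 0.1 FPKM in 3 of 9 embryos (19397) were fitted with limma 3.58.1 in R 4.3.3, with all 3 genotypes in a single fit, a variance trend and Benjamini-Hochberg adjustment over all of them. The procedure was tested on simulated data in which genes varied independently. That test does not cover an embryo that departs in many genes at once. The 3 embryos of a genotype are separate animals, so p-values measure the spread between embryos. The members and gene lists were chosen with earlier results of these data known. The text names all 9 members, their 3 nearest genes (a few are not reported here), Dnmt3b, and from each list and comparison up to 4 called genes of largest change or, with none called, that of smallest p. Socs3 and, between the mutants, Foxo3 are the fifth called genes of their lists and were named after their values were seen, to complete a count. Promoters came from RefSeq (GRCm38.p6). Columns of the authors' comparisons were not used.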

Additional observations from a re-analysis of the deposited data

How the results depend on the processing

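Each result was recomputed under 19 alternatives (other pseudocounts, filters, scalings and spread models, only the 2 genotypes compared, a replicate block, a fold of at least 2, and each embryo left out). Of the members' values 490 kept their direction and side of the threshold, 22 reversed and 1 passed the threshold. Of the named pathway genes' values 577 held, 93 lost their call, 7 gained one and 5 reversed. The same numbers did not pair embryos (mean r of deviations -0.0865, against 0.0478 for different numbers). With the replicate block no member was called, and 8 pathway genes rather than 13 were called between labelled Dnmt3b-/- and Dnmt3b+/+. That count was 6 with only the 2 genotypes in the fit and 2 with a fold of at least 2. Between the mutants it was 23 and 2, instead of 13. Leaving out single embryos gave 0 to 1 members and 6 to 16 pathway genes for labelled Dnmt3b-/- against Dnmt3b+/+ (6 without labelled Dnmt3b-/- embryo 3, 7 without Dnmt3b+/+ embryo 3 and 8 without labelled Dnmt3b-/- embryo 2). It gave 8 to 24 pathway genes between the mutants (24 without Dnmt3b+/+ embryo 2, and 8 without labelled Dnmt3b-/- embryo 2 or 3 or Dnmt3bCI/CI embryo 1 or 3), and 0 of either for Dnmt3bCI/CI against Dnmt3b+/+. Hbb-bh1 was called under all 19 alternatives in both comparisons with labelled Dnmt3b-/-, and against Dnmt3b+/+ Sox6 and Jak2 were called under 18 of 19 (not with a fold of at least 2), Hba-x under 16, Kit and Foxo3 under 13, Epb41 and Zbtb7a under 12, Cish under 11 and Add2 under 7. Between the mutants Sox6 was called under 9 and Cish under 8.

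Reversals are given as log2 differences. Between the mutants Bcl11a turned to 0.041 under median-of-ratios scaling and 0.072 under quantile normalization, and under the latter Prdx2 turned to -0.011 for labelled Dnmt3b-/- against Dnmt3b+/+. Leaving out single embryos, that comparison ranged from -0.63 to 1.39 for Gata1, -0.88 to 1.54 for Klf1, -0.56 to 1.14 for Nfe2, -0.44 to 0.74 for Epor, -0.26 to 0.53 for Alas2, -0.047 to 0.74 for Tfrc, -0.44 to 1.08 for Slc4a1 and -0.045 to 0.52 for Alad. For Dnmt3bCI/CI against Dnmt3b+/+ the ranges were -0.12 to 0.30 for Tal1, -0.048 to 1.65 for Nfe2, -0.24 to 0.93 for Epor, -0.17 to 0.62 for Alas2, -0.21 to 0.57 for Tfrc, -0.26 to 1.26 for Slc4a1, -0.051 to 2.05 for Rhd, -0.014 to 2.46 for Pklr and -0.050 to 1.36 for Hbb-bs. In all of these the lowest value was that without Dnmt3b+/+ embryo 2 and the highest that without embryo 1. Between the mutants they were -0.049 to 0.040 for Bcl11a, -0.54 to 0.056 for Epor, -0.40 to 0.15 for Alas2 and -0.46 to 0.025 for Slc4a1, where the last 3 turned without labelled Dnmt3b-/- embryo 1. Without labelled Dnmt3b-/- embryo 2, Epor stood at -0.11 and Alas2 at -0.15 against Dnmt3b+/+. The cause of the reversals under other scalings was not tested. Depth limits Gata1, Klf1 and Nfe2 in Dnmt3b+/+ embryo 2, where they rest on 14, 34 and 34 reads.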

Other observations

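Among about 12800 genes with a mean of at least 1 FPKM over the remaining embryos, 32 were at least 10-fold lower in Dnmt3b+/+ embryo 2 than in any other embryo. Besides Gata1, Hemgn and Pklr they were mostly liver genes, such as Alb, Afp, Apoa1, Hnf4a and F2, with Hoxc11 also among them. In Dnmt3bCI/CI embryo 2 there were 12 such genes, of which Emx1, Fezf2, Tbr1, Eomes and Six3 are made in the forebrain. There was 1 in labelled Dnmt3b-/- embryo 3 (Slc6a5) and none in the other 6 embryos. The 9 members in Dnmt3bCI/CI embryo 2 lay close to those of its group, though its Bcl11a (4.68 FPKM) was the lowest of all 9 embryos. The part of forebrain content in that value was not tested.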
